A study of Mus musculus with 123 samples.

Results

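The enzymes described here oxidize foreign compounds, steroids and fatty acids or attach a polar group to them, and they were followed in lung tissue of BALB/c mice with and without sensitization to an allergen, an asthma model. They were chosen by symbol: cytochrome P450 genes (Cyp and a digit, without Cyp7b1 and Cyp26b1, which were left to another gene group), glutathione transferases (Gsta, Gstm, Gsto, Gstp, Gstt), UDP-glucuronosyltransferases (Ugt), sulfotransferases (Sult), flavin monooxygenases (Fmo) and aldehyde oxidases (Aox). The rule found 48 of the 13053 genes tested. It also picked up Fmod, the matrix proteoglycan fibromodulin, which is no enzyme and was left out, so that 47 enzymes were described. The 62 sensitized mice carried the label OVA-sensitized (OVA is ovalbumin, the egg protein used as allergen), and numbered 8 at each of 0, 2, 6, 48, 72, 96 and 168 h after challenge and 6 at 24 h. The 61 naive mice, which were not sensitized, numbered 8 at each of 0, 6, 24, 72 and 168 h and 7 at 2, 48 and 96 h. The series' design text states an OVA challenge for both arms, while titles of naive samples carry PBS, so the labels do not settle what naive mice received. The sources used here do not give whether 0 h lies before a challenge or just after one, the route of challenge, or the animals' age and sex. Each array measured the lung of 1 mouse, with log2 signals made by RMA, and differences are sensitized minus naive on that log2 scale, where 1 unit stands for a 2-fold signal ratio.

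Cytochrome P450 enzymes insert oxygen into their substrates with electrons from a reductase partner, flavin monooxygenases oxidize nitrogen and sulfur centres, and aldehyde oxidase acts on aldehydes and nitrogen heterocycles. Conjugating enzymes then add glutathione, sulfate or a sugar, which makes the product easier to export. In the mouse lung, club cells of the airway lining are known for a high content of P450 enzymes, among them Cyp2f2 and Cyp4b1, and alveolar and endothelial cells carry other members. Many of these genes are known targets of ligand-sensing factors: the aryl hydrocarbon receptor for Cyp1a1 and Cyp1b1, and the oxidant-sensing factor Nrf2 for several glutathione transferases. In whole tissue, fewer cells of a type and less RNA per cell cannot be told apart.

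The 47 enzymes comprised 11 P450 genes of families 1 to 3, 5 of family 4, 6 of family 7 and above, 12 glutathione transferases, 7 sulfotransferases, 4 flavin monooxygenases, Aox3 and Ugt8a. The lungs were labelled as lung and had high signals for their defining genes. The mean over 6 alveolar type II genes lay between 13.44 and 13.84 in sensitized mice and between 13.65 and 13.86 in naive mice. The mean over 5 hepatocyte genes lay between 6.74 and 7.51 in sensitized mice and between 6.75 and 7.84 in naive mice. A total of 10 arrays held transcripts of squamous epithelium or skeletal muscle, called neighbouring tissue below. A score over 9 squamous epithelium genes was 9.02 or more in 7 arrays, with no other array above 7.31. A score over 9 skeletal muscle genes was 8.31 or more in 9 arrays, with no other array above 7.45. They were sensitized mouse 6 at 2 h, sensitized mice 3 and 7 at 6 h and sensitized mouse 8 at 48 h, and naive mice 1 and 3 at 0 h, naive mouse 2 at 2 h, naive mice 1 and 8 at 6 h and naive mouse 8 at 24 h. Calls lost without these arrays are named below with both values. Calls gained without them were decreases of Cyp2b10, Cyp2c23, Cyp2f2 and Cyp4b1 and an increase of Cyp51 at 0 h, and decreases of Sult2b1 at 6 h, Cyp4v3 at 24 h, Gstm7 at 48 h and Cyp2f2 at 96 h.

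The question asked of each time was which enzymes differed between sensitized and naive lungs. Most of the called enzymes were lower in sensitized lungs, most of all at 6 h, and few were called at 2 and 168 h. A gene was called when its adjusted p in the limma fit over all genes was under 0.05. At 0 h, 11 enzymes were lower and 4 higher, so 23.4% of the 47 were lower, while 12.3% of all genes tested were called lower and 14.2% higher. At 2 h, 1 was lower (1.92% of all genes) and 1 higher (1.84% of all genes). At 6 h, 32 were lower and 7 higher, so 68.1% of the enzymes were lower, against 33.2% lower and 24.6% higher of all genes. At 24 h, 22 were lower and 7 higher, which made 46.8% lower, against 24.9% lower and 22.8% higher of all genes.

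The later times brought the enzymes' shares nearer to those of all genes. At 48 h, 13 were lower and 5 higher, against 18.1% lower and 17.0% higher of all genes. At 72 h, 18 were lower and 8 higher, against 26.3% and 22.2% of all genes. At 96 h, 12 were lower and 10 higher, against 20.8% and 21.2% of all genes. By this count the 25.5% of enzymes lower at 96 h was close to the background. With arrays centred on their median more enzymes were lower at 96 h, as given in the last section. At 168 h, 1 was lower and 1 higher, against 1.41% and 3.40% of all genes. The median difference of the enzymes was -0.11 at 0 h, -0.04 at 2 h, -0.40 at 6 h, -0.29 at 24 h, -0.02 at 48 h, -0.16 at 72 h, -0.07 at 96 h and 0.02 at 168 h. Over all genes the median lay between -0.04 and 0.01 at each of these times, and at 48 h it was -0.02 as well. The groups stood apart, without any overlap between mice, for few enzymes before 24 h. At 0 h this held for 2 enzymes with sensitized mice higher and 1 with sensitized mice lower, against 1.98% and 0.605% of all genes. At 2 h and at 6 h it held for 1 enzyme, lower in sensitized mice, against 0.651% and 0.743% of all genes. At 24 h it held for 4 enzymes that were higher and 11 that were lower, against 13.0% and 9.11% of all genes. At 48 h it held for 2 that were higher and 6 that were lower (5.98% and 4.04% of all genes), and at 72 h for 2 and 7 (6.92% and 8.17% of all genes). At 96 h 1 was higher and 11 were lower, against 6.13% and 5.06% of all genes, and at 168 h there was none. By overlap of mice, the share of enzymes lower at 96 h was thus above that of all genes.

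Across the 8 times, 27 enzymes were called lower at least once and never higher, and 10 higher and never lower. Another 7 were called in both directions and 3 (Aox3, Gsto2 and Sult2b1) at no time. These patterns were not counted over all genes, so they cannot be read as particular to the enzymes. At 6 h alone, 33.2% of all genes were called lower and 24.6% higher. Without the 10 arrays with neighbouring tissue, Sult2b1 was also called at 6 h, lower (-0.32, adjusted p = 0.0106).

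**Figure D1:**
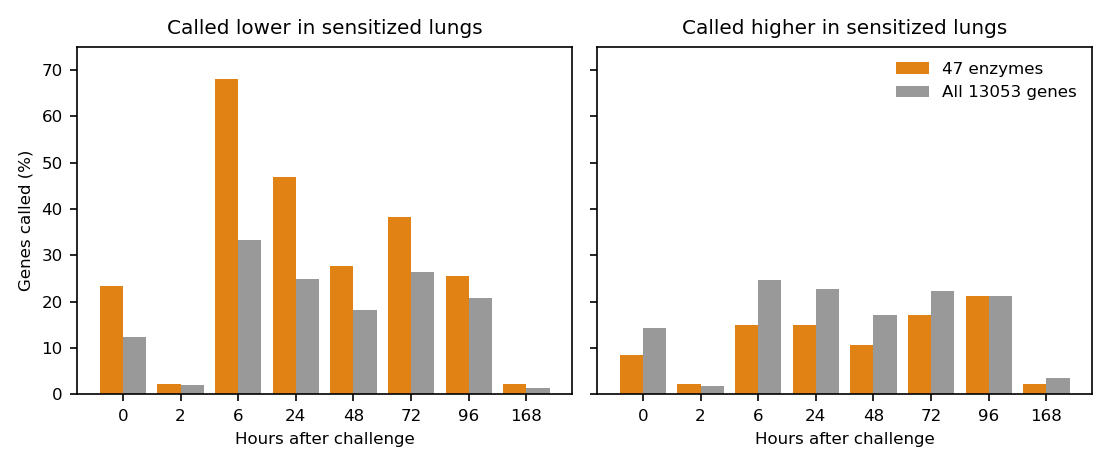
Share of genes called lower (left) and higher (right) in sensitized than in naive lungs, in percent, at each time after challenge; orange bars are the 47 enzymes and grey bars all 13053 genes. The share of enzymes called lower reached 68.1% at 6 h, against 33.2% of all genes.

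**Figure D2:**
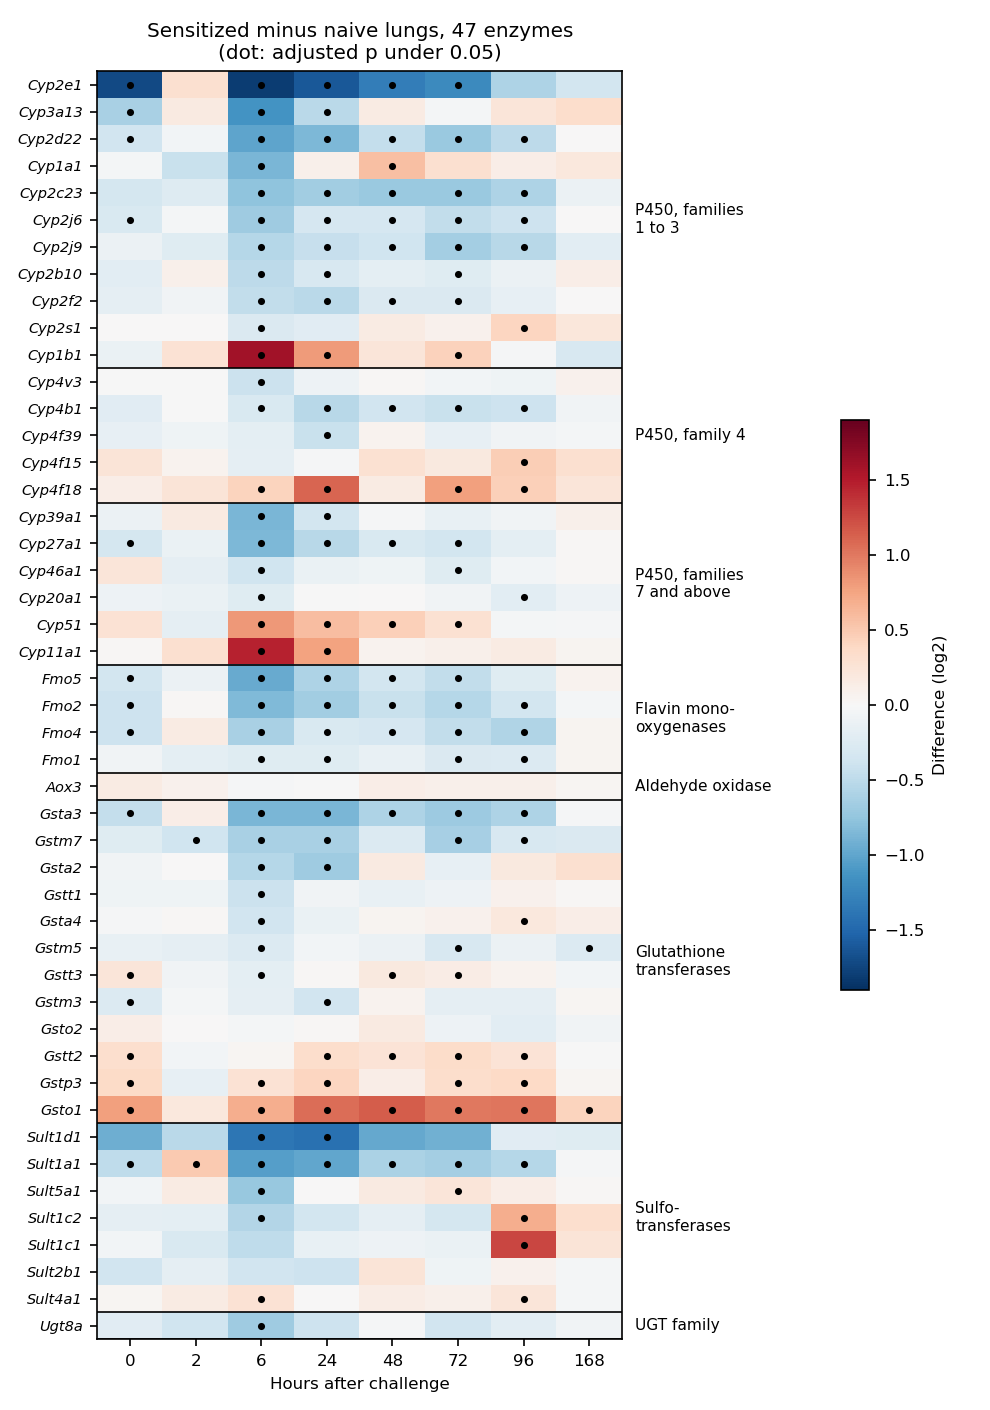
Sensitized minus naive difference (log2, colour) of the 47 enzymes at the 8 times after challenge, grouped by role and sorted by the 6 h difference; a dot marks an adjusted p under 0.05. Blue (lower in sensitized lungs) prevails at 6 and 24 h, and Gsto1 is red at 7 times with a dot.

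Among the P450 genes of families 1 to 3, which metabolize most drugs and pollutants, 10 of 11 were lower and 1 higher at 6 h, where 33.2% of all genes were lower and 24.6% higher. Cyp1b1, an aryl hydrocarbon receptor target that oxidizes polycyclic hydrocarbons and oestrogens, was the exception. At 6 h its signal was 10.12, 11.01 and 11.62 (lowest, median and highest, given in this order below) in the 8 sensitized mice, against 8.72, 9.15 and 10.75 in the 8 naive mice. Most sensitized mice were high: 6 of 8 lay above all naive mice, and the groups overlapped. The difference was 1.59 ± 0.17 (SE), a 3.01-fold higher signal (adjusted p = 3.73e-13). It was 0.81 ± 0.19 at 24 h (adjusted p = 0.000195) and 0.44 ± 0.17 at 72 h (adjusted p = 0.0307). A second probe set of the gene gave 1.58 at 6 h and 1.22 at 24 h, and 0.50 at 96 h, where the one used gave -0.03. The 2 sensitized mice that overlapped were mice 2 and 3, at 10.28 and 10.12, and the highest naive mouse, mouse 4 at 10.75, stood far above most naive mice.

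Cyp1a1, the other classic target of the same receptor, went the opposite way at 6 h. Its signal was 8.46, 9.10 and 9.75 in sensitized mice, against 9.52, 10.05 and 10.45 in naive mice. Most sensitized mice were low, with the groups overlapping at their edge. The difference was -0.87 ± 0.16 (adjusted p = 3.01e-06). At 48 h Cyp1a1 was higher instead, with 10.16, 10.58 and 10.99 in sensitized mice, against 9.77, 9.94 and 10.27 in naive mice, a difference of 0.57 ± 0.17 (adjusted p = 0.00523). The receptor's own transcript, Ahr, differed by 0.11 ± 0.06 at 6 h (adjusted p = 0.117), its partner Arnt by -0.17, which was called lower, and Tiparp, a further target, by -0.03, which was not called.

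The promoters of Cyp1a1 and Cyp1b1 are shown because both genes are targets of the same receptor, yet moved in opposite directions at 6 h. They run from 250 bases before to 50 after the gene's start (RefSeq, GRCm38.p6), and capitals mark the core of the xenobiotic response element, GCGTG, searched on both strands (CACGC on the other strand). That of Cyp1a1 is chr9:57697363-57697662 on the plus strand and that of Cyp1b1 chr17:79715012-79715311 on the minus strand.
Cyp1a1: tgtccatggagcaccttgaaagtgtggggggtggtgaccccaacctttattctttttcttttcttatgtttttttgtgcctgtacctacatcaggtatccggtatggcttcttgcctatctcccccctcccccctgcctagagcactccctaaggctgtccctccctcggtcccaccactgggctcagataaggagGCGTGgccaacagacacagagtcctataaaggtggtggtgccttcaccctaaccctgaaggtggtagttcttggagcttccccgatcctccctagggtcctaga
Cyp1b1: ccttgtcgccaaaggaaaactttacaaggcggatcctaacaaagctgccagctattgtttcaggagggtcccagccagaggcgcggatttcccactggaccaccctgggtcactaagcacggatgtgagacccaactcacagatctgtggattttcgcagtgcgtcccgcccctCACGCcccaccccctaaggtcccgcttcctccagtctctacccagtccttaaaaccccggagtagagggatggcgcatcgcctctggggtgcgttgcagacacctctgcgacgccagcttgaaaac
Each window held 1 match, beginning 54 bases before the start in Cyp1a1 and 76 bases before it in Cyp1b1. Of the 47 enzymes, 40 had a promoter window in the table, 46 windows in all, and 17 of these (37.0%) held the core, against 32.4% of all 32851 windows. A match of so short a motif is a description of the letters and not a binding site.

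Cyp2e1, which oxidizes ethanol, acetone and small solvents, had the largest decrease of all enzymes. At 0 h it had 8.31, 9.67 and 10.64 in sensitized mice, against 10.64, 11.20 and 11.81 in naive mice. All 8 sensitized mice lay below all naive mice, though by a narrow margin, and the difference was -1.72 ± 0.41 (adjusted p = 0.000966). At 2 h the groups lay together, with 9.87, 10.36 and 12.31 in sensitized mice and 9.66, 10.08 and 10.94 in naive mice (0.30 ± 0.42, adjusted p = 0.773). At 6 h it was lower again, with 7.74, 8.94 and 12.13 in sensitized mice, against 10.04, 10.68 and 13.16 in naive mice, a 3.51-fold lower signal (-1.81 ± 0.41, adjusted p = 7.56e-05). The decrease was called through 72 h (-1.61 at 24 h, -1.32 at 48 h and -1.21 at 72 h) and no longer at 96 h (-0.59).

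Adipocyte markers moved with Cyp2e1, a gene that fat cells also express. At 0 h, 4 of the 5 measured adipocyte genes were lower, against 12.3% of all genes, with a median difference of -1.16. The mean over the list then lay between 6.76 and 8.20 in sensitized mice and between 8.28 and 9.33 in naive mice. At 2 h none was called and the median was 0.03. The list had 3 lower at 6 h (median -0.83), 5 at 24 h (-1.15), 1 at 48 h (-0.79) and 2 at 72 h (-0.93), and at 96 h none was called (-0.15). Of all genes, 33.2%, 24.9%, 18.1% and 26.3% were lower at 6, 24, 48 and 72 h. The 1 of 5 at 48 h was thus near the background. Single mice showed the same order at 6 h. Naive mice 1 and 4 had the highest adipocyte means, 10.52 and 10.60, and the highest Cyp2e1, 12.91 and 13.16. Sensitized mice 2 and 3 had the highest adipocyte means of their group, 8.73 and 9.76, and the highest Cyp2e1, 11.21 and 12.13. The part of these cells in the Cyp2e1 result was not tested.

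Cyp2f2, the naphthalene-activating P450 of club cells, was lower, with differences of -0.47 ± 0.07 at 6 h and -0.52 ± 0.08 at 24 h. In the plot of P450 genes by mouse the 24 h groups stand apart, and the same held at 48 h (-0.28). The club cell list gave a mixed picture beside it: at 24 h, 2 of its 8 genes were higher and 3 lower (median -0.10), shares not far from the 22.8% and 24.9% of all genes, and its mean lay between 11.66 and 11.94 in sensitized mice and between 11.56 and 12.19 in naive mice. Scgb1a1, which defines the club cell, differed by -0.05 at 24 h and was not called, while Scgb3a2 was lower (-0.91). The means of Scgb1a1, 14.45 in sensitized and 14.50 in naive mice, lay above the highest signal of any enzyme, 14.08. Whether so high a signal follows club cell number was not tested. The part of club cell number in the Cyp2f2 result was not tested.

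Cyp2d22, a mouse member of the family that includes human CYP2D6, was lower at every time except 2 and 168 h. At 24 h it had 10.03, 10.38 and 10.77 in sensitized mice, against 10.96, 11.25 and 11.34 in naive mice. All 6 sensitized mice were below all naive mice (-0.85 ± 0.13, adjusted p = 7.68e-08), as they were at 48, 72 and 96 h, and the 6 h difference was -1.0 ± 0.12. Cyp2c23, an arachidonic acid epoxygenase, was called lower from 6 to 96 h. At 72 h it had 6.13, 6.90 and 7.23 in sensitized mice, against 7.35, 7.50 and 7.81 in naive mice. The groups were apart at 48, 72 and 96 h (-0.70, -0.71 and -0.58), and its probe set can also bind transcripts of close relatives. Its functional kin Cyp2j6 and Cyp2j9, neighbours on chromosome 4 in the GRCm38.p6 gene order, were lower from 6 to 96 h too, with differences of -0.68 and -0.55 at 6 h. At 96 h Cyp2j9 had 8.66, 8.89 and 9.19 in sensitized mice, against 9.27, 9.44 and 9.61 in naive mice (-0.52 ± 0.11, adjusted p = 4.69e-05), with no overlap.

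The remaining members of these families changed less or at fewer times. Cyp3a13, which metabolizes drugs and steroids, had 5.67, 6.02 and 7.23 at 6 h in sensitized mice, against 7.0, 7.32 and 8.38 in naive mice. Nearly all sensitized mice were low, 7 of 8 below all naive mice (-1.13 ± 0.20, adjusted p = 6.44e-07). Its decreases at 0 h (-0.62) and 24 h (-0.51) were not called without the arrays that held neighbouring tissue (-0.35, adjusted p = 0.078, and -0.32, adjusted p = 0.0879). Cyp2b10 was lower, with differences of -0.50 at 6 h, -0.30 at 24 h and -0.23 at 72 h. Cyp2s1, a P450 of epithelial surfaces, was lower (-0.28) at 6 h and higher by 0.40 at 96 h.

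**Figure D3:**
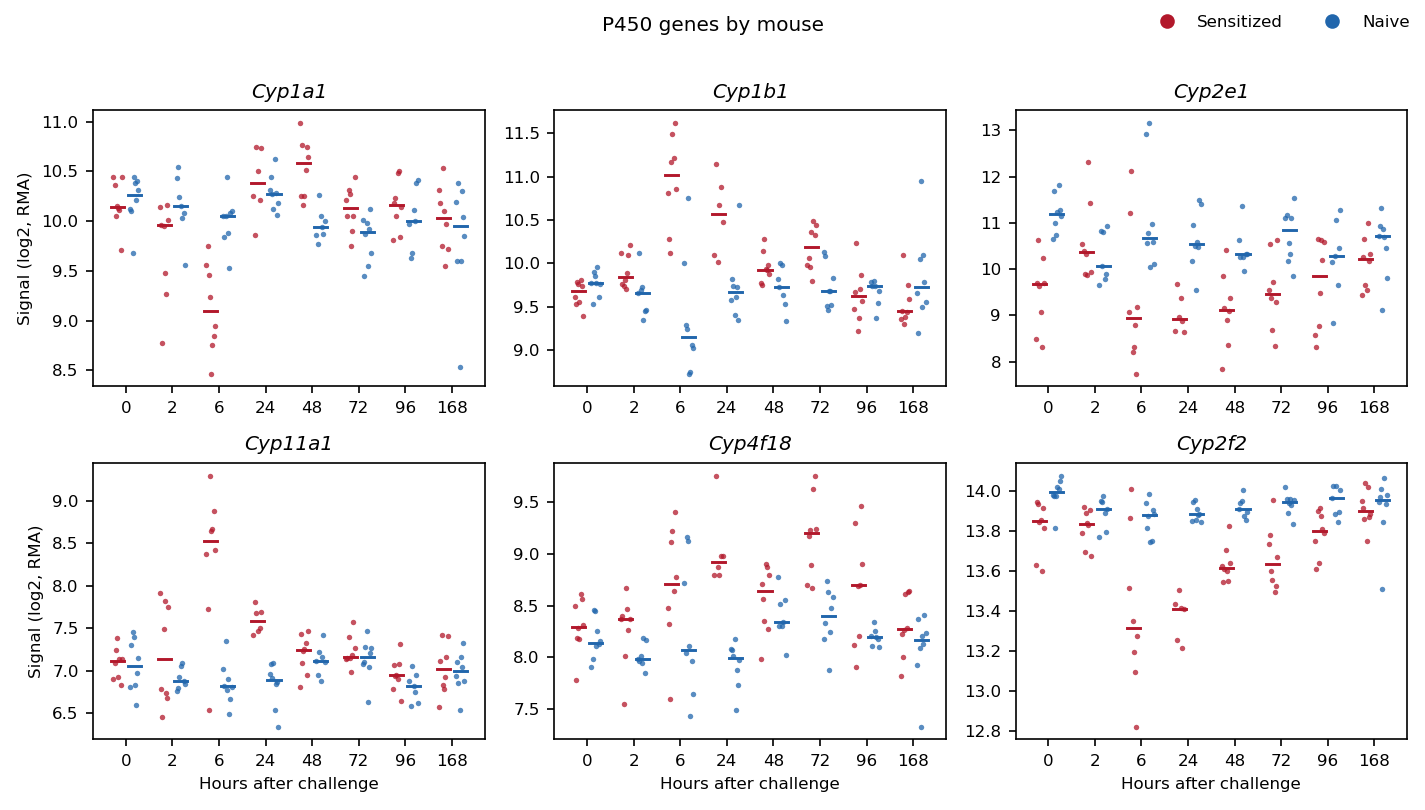
Signal (log2, RMA) of 6 P450 genes in each mouse at the 8 times after challenge, sensitized mice in red on the left and naive mice in blue on the right of each time; the bar is the median. Cyp1b1 and Cyp11a1 stand high and Cyp1a1 low in most sensitized mice at 6 h, and Cyp2f2 and Cyp4f18 separate the groups at 24 h.

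P450 family 4 enzymes hydroxylate fatty acids and lipid mediators at their far end, and its 5 members did not move together. Cyp4f18, which inactivates leukotriene B4 in mouse neutrophils, was called higher at 4 times. At 24 h it had 8.80, 8.92 and 9.75 in sensitized mice, against 7.50, 7.99 and 8.18 in naive mice. All 6 sensitized mice were above all 8 naive mice (1.10 ± 0.20, adjusted p = 1.86e-06), and without the high mouse 2 at 9.75 the other sensitized mice lay at most at 8.98. It was also higher at 6 h (0.42), 72 h (0.78) and 96 h (0.46). The leukocyte list moved with it at some times: all 5 measured genes were higher at 6, 24 and 72 h and 2 of 5 at 96 h. Of all genes, 24.6%, 22.8%, 22.2% and 21.2% were higher at 6, 24, 72 and 96 h. At 0 h, when Cyp4f18 was not called, 4 of 5 were higher, and at 48 h 2 of 5, against 14.2% and 17.0% of all genes. At 24 h the leukocyte mean lay between 13.16 and 13.42 in sensitized mice and between 12.73 and 13.07 in naive mice. The part of leukocyte number in the Cyp4f18 result was not tested.

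Cyp4b1, a P450 of club cells that activates plant furans, fell by 0.53 ± 0.09 at 24 h, with 12.66, 12.91 and 12.98 in sensitized mice against 13.28, 13.40 and 13.46 in naive mice (adjusted p = 8.31e-07). No mouse overlapped, and it was lower at every time from 6 to 96 h. Cyp4f15, a fatty acid hydroxylase, was higher at 96 h alone, with 7.86, 8.28 and 8.96 in sensitized mice, against 7.37, 7.99 and 8.24 in naive mice (0.46 ± 0.14, adjusted p = 0.00574). Its groups overlapped. Cyp4f39, which acts on very long fatty acids of skin lipids, was lower at 24 h (-0.42), and Cyp4v3 at 6 h (-0.40).

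The P450 genes of family 7 and above work on cholesterol and its products, apart from the orphan Cyp20a1. Cyp11a1, which cleaves the cholesterol side chain to make pregnenolone, had 6.53, 8.53 and 9.30 at 6 h in sensitized mice, against 6.49, 6.82 and 7.34 in naive mice. It was high in 7 of 8 sensitized mice, and mouse 3 at 6.53 lay among the naive mice (1.47 ± 0.17, adjusted p = 1.77e-12). At 24 h the groups stood apart, with 7.42, 7.59 and 7.81 in sensitized mice against 6.34, 6.89 and 7.09 in naive mice (0.77 ± 0.18, adjusted p = 0.000241). The other probe set of Cyp11a1 gave a smaller difference at 6 h, 0.53, and one of 0.52 at 24 h. It differed by 0.40 at 0 h, 1.03 at 72 h and 0.84 at 96 h, where the probe set used differed by 0.02, 0.09 and 0.15, so the 2 probe sets disagreed in size and timing. Cyp51, the lanosterol demethylase of cholesterol synthesis, was higher from 6 to 72 h. It had 10.94, 11.86 and 12.03 at 6 h in sensitized mice, against 10.59, 10.86 and 11.00 in naive mice. Mice 2 and 3 of the sensitized group, both at 10.94, lay within the naive range and the other 6 far above it (0.82 ± 0.11, adjusted p = 5.42e-10).

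The enzymes that break cholesterol down or make oxysterols were lower at 6 h. Cyp27a1, the mitochondrial sterol hydroxylase, had 9.38, 9.62 and 10.60 in sensitized mice, against 10.51, 10.64 and 10.83 in naive mice, with 7 of 8 sensitized mice below all naive mice (-0.86 ± 0.10, adjusted p = 4.62e-12). It was also lower at 0, 24, 48 and 72 h. Cyp39a1, an oxysterol hydroxylase, had 8.62, 9.10 and 10.07 in sensitized mice, against a median of 10.06 and a highest value of 10.25 in naive mice (-0.87 ± 0.10, adjusted p = 3.18e-13). Only mouse 3 entered the naive range. Cyp46a1, the cholesterol hydroxylase known from the brain, differed by -0.37 and Cyp20a1 by -0.22, both called.

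All 4 flavin monooxygenases were lower in sensitized lungs at 6, 24 and 72 h, and none was higher at any time. Of all genes, 33.2%, 24.9% and 26.3% were lower at these times. Fmo2 had 11.40, 12.13 and 12.95 at 6 h in sensitized mice, against 12.87, 13.02 and 13.22 in naive mice (-0.84 ± 0.11, adjusted p = 3.63e-10). Fmo5, which also acts as a Baeyer-Villiger oxidase, had 8.92, 9.61 and 10.74 in sensitized mice, against 10.61, 10.69 and 10.81 in naive mice (-0.96 ± 0.12, adjusted p = 3.1e-11). Only mouse 2 of the sensitized group entered the naive range of Fmo5, while mice 2 and 3 did so for Fmo2. At 24 h no mouse overlapped for Fmo1, Fmo2 or Fmo5. At 96 h the groups stood apart for all 4 genes, and 3 of the 4 were called lower, against 20.8% of all genes. Fmo4 then had 5.89, 6.42 and 6.53 in sensitized mice against 6.71, 6.90 and 7.16 in naive mice (-0.57 ± 0.12, adjusted p = 4.32e-05). The decrease of Fmo1 at 6 h (-0.24) was not called without the arrays that held neighbouring tissue (-0.18, adjusted p = 0.0795). Fmo4, Fmo1 and Fmo2 lie next to each other on chromosome 1 in the GRCm38.p6 gene order. Aox3, the aldehyde oxidase measured, differed by at most 0.15 and was called at no time.

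Among the 12 glutathione transferases, 7 were lower and 2 higher at 6 h (33.2% and 24.6% of all genes), and each class except mu held a member that was higher at some time. Gsto1, which reduces dehydroascorbate and mixed glutathione disulfides, was the enzyme called higher at the most times, 7 of 8. At 0 h it had 12.57, 12.90 and 13.44 in sensitized mice, against 12.04, 12.20 and 12.49 in naive mice. No mouse overlapped (0.78 ± 0.11, adjusted p = 4.39e-08). At 2 h the groups lay together (0.20 ± 0.11, adjusted p = 0.361). At 48 h it had 12.76, 13.15 and 13.38 in sensitized mice, against 11.85, 11.92 and 12.18 in naive mice, a 2.22-fold higher signal without overlap (1.15 ± 0.11, adjusted p = 1.02e-14).

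The increase of Gsto1 was called as late as 168 h. It then had 12.14, 12.54 and 12.66 in sensitized mice, against 11.83, 12.01 and 12.27 in naive mice, with 6 of 8 sensitized mice above all naive mice (0.43 ± 0.11, adjusted p = 0.00944). Its neighbour on chromosome 19, Gsto2, differed by between -0.20 and 0.17 and was called at no time. Gstt2 was higher at 0, 24, 48, 72 and 96 h, by 0.25 to 0.36. Gstp3 was higher at 0, 6, 24, 72 and 96 h, by 0.27 to 0.41, of which the 6 h call was lost without the arrays that held neighbouring tissue (0.23, adjusted p = 0.0724). Gstt3 was higher by 0.22 at 0 h, with the groups apart, lower (-0.18) at 6 h and higher again at 48 and 72 h.

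Gsta3, an alpha class enzyme that conjugates aflatoxin epoxide in the mouse, was lower at every time except 2 and 168 h. At 24 h it had 10.08, 10.51 and 10.65 in sensitized mice, against 11.02, 11.24 and 11.62 in naive mice. The groups were apart (-0.87 ± 0.16, adjusted p = 2.31e-06), as they were at 96 h (-0.59 ± 0.15). Its promoter is printed because it held the core of the antioxidant response element, TGACNNNGC on either strand, the element through which Nrf2 acts. The window is chr1:21240335-21240634 on the plus strand (RefSeq, GRCm38.p6), with the match in capitals.
Gsta3: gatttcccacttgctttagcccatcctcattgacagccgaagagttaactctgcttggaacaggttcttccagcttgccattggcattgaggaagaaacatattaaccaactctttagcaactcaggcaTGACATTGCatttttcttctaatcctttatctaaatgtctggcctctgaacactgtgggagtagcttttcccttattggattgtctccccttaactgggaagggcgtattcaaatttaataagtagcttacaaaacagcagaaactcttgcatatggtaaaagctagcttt
The match began 121 bases before the start. This core stood in 6 of the 46 windows of the enzymes (13.0%) and in 12.4% of all windows.

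Gstm7, of the mu class, was the enzyme called lower at 2 h, with 8.49, 8.75 and 8.90 in sensitized mice against 8.95, 9.15 and 9.26 in naive mice. No mouse overlapped (-0.37 ± 0.12, adjusted p = 0.0485), and the call was lost with the probe set of largest variance for each gene (adjusted p = 0.0526). Gstm7 has 1 probe set, so its difference was the same in that fit and only values of other genes changed. It was lower, with differences of -0.62 at 6 h, -0.62 at 24 h, -0.63 at 72 h and -0.30 at 96 h. Gsta2, which reduces lipid peroxides, had 8.37, 9.12 and 9.23 at 24 h in sensitized mice, against 9.21, 9.67 and 10.07 in naive mice (-0.67 ± 0.18, adjusted p = 0.00102), and was also lower at 6 h. Gsta4, which detoxifies hydroxynonenal, was lower (-0.36) at 6 h and higher by 0.19 at 96 h. Gstm3 was lower at 0 h (-0.26) and 24 h (-0.36), Gstt1 at 6 h (-0.40), and Gstm5 at 6, 72 and 168 h. At 168 h Gstm5 had 10.40, 10.53 and 10.77 in sensitized mice, against 10.57, 10.74 and 11.19 in naive mice (-0.26 ± 0.08, adjusted p = 0.0266), with overlap. That call was lost with array weights (-0.11, adjusted p = 0.181) and with only the 2 groups compared (adjusted p = 0.109). Gsta2, Gstm3 and other close relatives share sequence, so their probe sets do not always separate them.

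The 7 sulfotransferases went different ways. Sult1a1, which sulfates phenols and drugs, was called at 7 times. At 2 h it had 11.75, 12.12 and 12.34 in sensitized mice, against 11.39, 11.67 and 11.77 in naive mice, and 7 of 8 sensitized mice stood above all naive mice (0.50 ± 0.14, adjusted p = 0.0208). At 6 h it had 10.52, 11.16 and 11.95 in sensitized mice, against 12.09, 12.20 and 12.54 in naive mice. All sensitized mice were now below all naive mice (-1.04 ± 0.13, adjusted p = 6.11e-11). It was the one enzyme whose groups stood apart at 6 h. The decrease was -0.98 ± 0.14 at 24 h, again without overlap, and was called through 96 h (-0.55 ± 0.14).

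Sult1c1 and Sult1c2, neighbours on chromosome 17, were higher at 96 h. Sult1c1 had 4.80, 6.76 and 7.90 in sensitized mice, against 4.71, 4.83 and 6.56 in naive mice (1.27 ± 0.33, adjusted p = 0.00112). Sult1c2 had 6.02, 7.32 and 7.91 in sensitized mice, against 5.99, 6.36 and 6.72 in naive mice (0.69 ± 0.17, adjusted p = 0.000388). The increase was not shared by all mice: sensitized mice 3, 5, 6, 7 and 8 stood above all naive mice for both genes, and mice 1, 2 and 4 did not. The ciliated cell list, of another airway cell type, had 4 of 8 genes higher at 96 h (21.2% of all genes), with a mean between 9.93 and 10.84 in sensitized mice and between 9.60 and 10.28 in naive mice, and its part in these results was not tested. It had 5 of 8 genes higher at 48 h and at 72 h too, when neither Sult1c1 nor Sult1c2 was called. At 72 h, sensitized mouse 5 alone had 7.92 for Sult1c1 and 7.39 for Sult1c2, above every other sensitized mouse of that time.

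Sult1d1, which sulfates catechols in the mouse, had 7.65, 8.18 and 11.49 at 6 h in sensitized mice, against 8.49, 9.93 and 11.54 in naive mice (-1.37 ± 0.47, adjusted p = 0.0088). Its groups overlapped widely at 6 and 24 h (-1.42 ± 0.50, adjusted p = 0.015). The 6 h call was lost with only the 2 groups compared (adjusted p = 0.0555) and the 24 h call without sensitized mouse 1 (-1.21, adjusted p = 0.0514). Sensitized mouse 3, at 11.49, and naive mice 1 and 4, at 11.54 and 11.34, were its highest mice at 6 h, as they were for the adipocyte list. Sult5a1 was lower (-0.73) at 6 h and higher by 0.22 at 72 h, and Sult4a1, a form of the brain with no settled substrate, was higher by 0.27 at 6 h and 0.23 at 96 h. Ugt8a, which makes the galactolipids of myelin and does not conjugate drugs, was lower at 6 h, with 5.19, 5.80 and 7.14 in sensitized mice against 5.91, 6.25 and 7.51 in naive mice (-0.67 ± 0.18, adjusted p = 0.000864). The groups overlapped, and the call was lost with only the 2 groups compared (adjusted p = 0.0552).

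**Figure D4:**
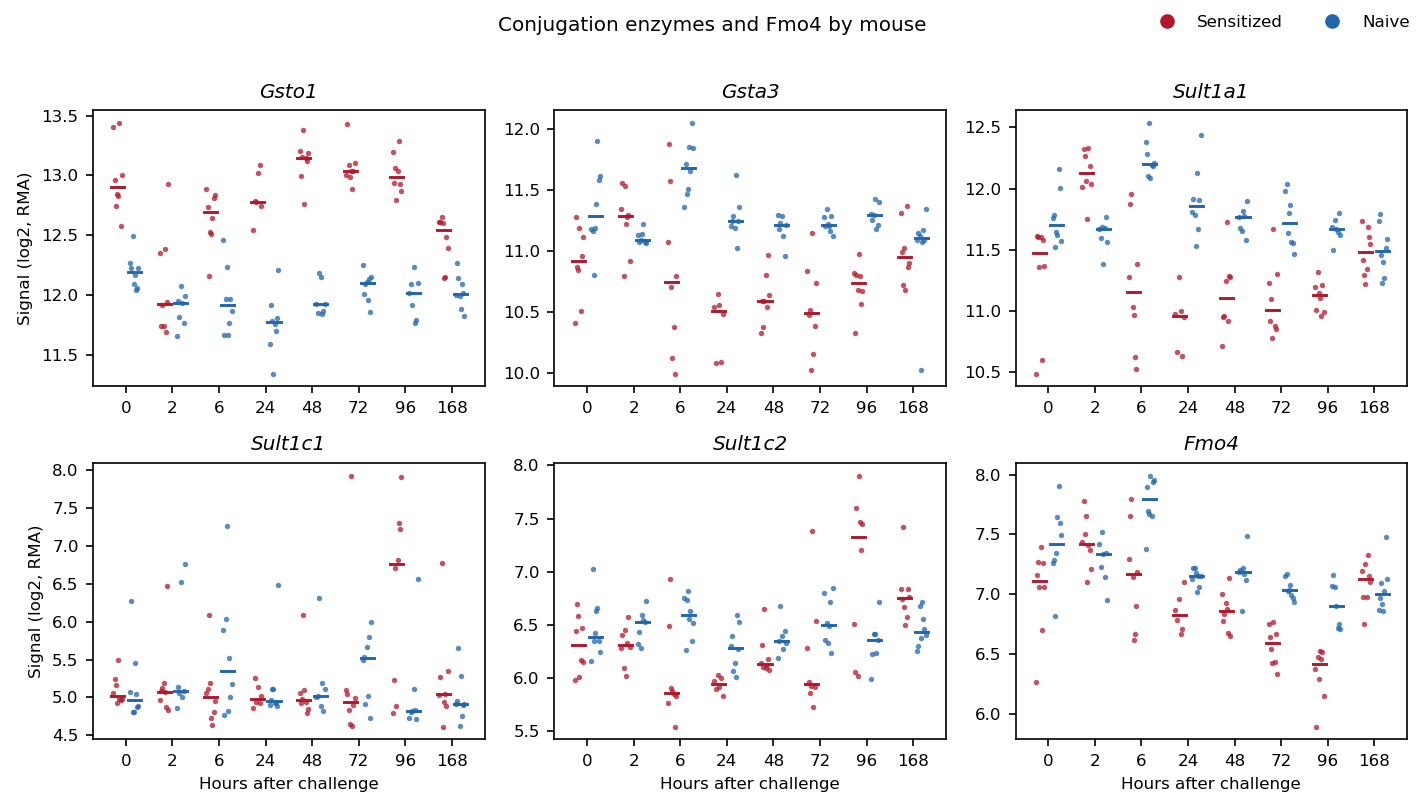
Signal (log2, RMA) of 5 conjugating enzymes and Fmo4 in each mouse at the 8 times after challenge, sensitized mice in red on the left and naive mice in blue on the right of each time; the bar is the median. For Sult1a1, most sensitized mice stand above all naive mice at 2 h, and all stand below them at 6 h. Sult1c1 and Sult1c2 are high in 5 of 8 sensitized mice at 96 h.

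Because the arms differed already at 0 h, the change of the difference since 0 h was tested too. At 2 h, 3 enzymes had moved up and 4 down (2.34% and 4.34% of all genes). Cyp2e1 moved up by 2.02 ± 0.58 (adjusted p = 0.0231), Sult1a1 by 0.98 ± 0.19 (adjusted p = 0.000566) and Fmo4 by 0.55, while Gsto1 moved by -0.57, Gstp3 by -0.51, Gstt2 by -0.38 and Gstt3 by -0.29. These changes subtract the 0 h difference, so an enzyme with a large 0 h difference tends to move back by construction. Without sensitized mice 1 and 6 at 0 h, left out after seeing the data, 1 enzyme had moved up and 1 down at 2 h. At 6 h, 3 had moved up and 17 down (10.0% and 14.6% of all genes), with Cyp1b1 up by 1.71 ± 0.25 (adjusted p = 2.86e-07), Cyp11a1 by 1.44 ± 0.24 and Cyp51 by 0.55 ± 0.16. The 17 included Cyp1a1 (-0.84), Cyp39a1 (-0.77), Sult5a1 (-0.68), Cyp2d22 (-0.64), Fmo5 (-0.62), Cyp46a1 (-0.60) and Sult1a1 (-0.56).

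The later changes since 0 h that were called with all mice weighted equally were few, and their number depended on the setting. With array weights 23 enzymes were called at 24 h and 13 at 72 h, and without sensitized mice 1 and 6 at 0 h 11 were called at 24 h. With all mice weighted equally, at 24 h, Cyp1b1 (0.93 ± 0.26) and Cyp4f18 (0.98 ± 0.27) had moved up and Cyp2f2 (-0.35 ± 0.10) down, where 3.39% and 2.11% of all genes had. No enzyme was called at 48 h by limma, and none of all 13053 genes, though 6 enzymes had an unadjusted p under 0.05 and 5 were called with array weights. At 72 h Cyp2j9 (-0.53) and Cyp46a1 (-0.45) had moved down, at 96 h Sult1c2 (0.85) up, and at 168 h Gstt2 (-0.33) down. The share of all genes called was 1.48% up and 1.06% down at 72 h, 1.34% up and 1.78% down at 96 h, and 0.965% up and 0.973% down at 168 h. The interaction of sensitization with time was called for 35 of 47 enzymes, against 62.5% of all genes.

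Variation over time was also tested within each arm. The F test called 44 of 47 enzymes in sensitized mice, against 87.8% of all genes, and 15 of 47 in naive mice, against 38.4% of all genes. The share of enzymes was near that of all genes in sensitized mice and below it in naive mice. Variation over time was thus not particular to the enzymes. Among naive mice, Cyp3a13 had the widest range of time means, 1.18, with medians of 7.34 at 0 h and 7.32 at 6 h and of 6.23 to 6.73 at the other 6 times. Naive mice 1 and 3 at 0 h and 1 and 8 at 6 h were arrays with neighbouring tissue. The sensitized minus naive difference of Cyp3a13 at 0 h was -0.62 with all arrays and -0.35 without those set apart. Its naive range without them was not computed. Fmo4 ranged over 0.86, with a median of 7.80 at 6 h and 6.90 at 96 h. Sult1a1 ranged over 0.75, with a median of 12.20 at 6 h, against 11.49 at 168 h, and Gstm7 over 0.76, with a median of 8.44 at 6 h, against 9.28 at 72 h. So these naive levels stood high or low at 6 h, which is the level that the 6 h differences of Cyp3a13, Fmo4 and Sult1a1 were measured from. Sult1a1 in sensitized mice had a mean of 11.21 at 6 h and 11.28 at 0 h.

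At 6 h the sensitized mice were not alike. Over the 32 enzymes called lower, mice 2 and 3 had median differences from the naive mean of 0.0080 and 0.03, and they lay within or above the naive range in 27 and 29 of the 32. The other 6 sensitized mice had medians from -1.07 to -0.48. Mice 2 and 3 also had the lowest Cyp1b1, Cyp11a1 and Cyp51 of their group. Their goblet cell means, 9.35 and 8.09, were below those of the other sensitized mice (9.90 to 10.79) and above those of the naive mice (6.52 to 7.98). Their adipocyte means were the highest of the sensitized group, and mouse 3 was an array with skeletal muscle transcripts. Without both mice, 33 enzymes were called lower and 7 higher.

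At 0 h the count of lowered enzymes rested on 2 mice. Sensitized mice 1 and 6 had medians of -0.94 and -0.85 over the 11 enzymes called lower, and the others from -0.36 to -0.14. Without either mouse alone 5 enzymes were called lower and 4 higher, and without both 1 was lower and 3 higher. The lower levels of Sult1a1 (-0.24, adjusted p = 0.276), Gsta3 (-0.31, adjusted p = 0.225), Fmo4 (-0.22, adjusted p = 0.255) and Cyp3a13 (-0.53, adjusted p = 0.134), and the higher level of Gstp3 (0.31, adjusted p = 0.0636), were then not called. Mice 1 and 6 had the highest goblet cell means of that group, 11.46 and 11.57, against 10.20 to 10.68 in the other sensitized mice and 6.89 to 7.69 in naive mice. They also had the highest Gsto1, 13.40 and 13.44.

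**Figure D5:**
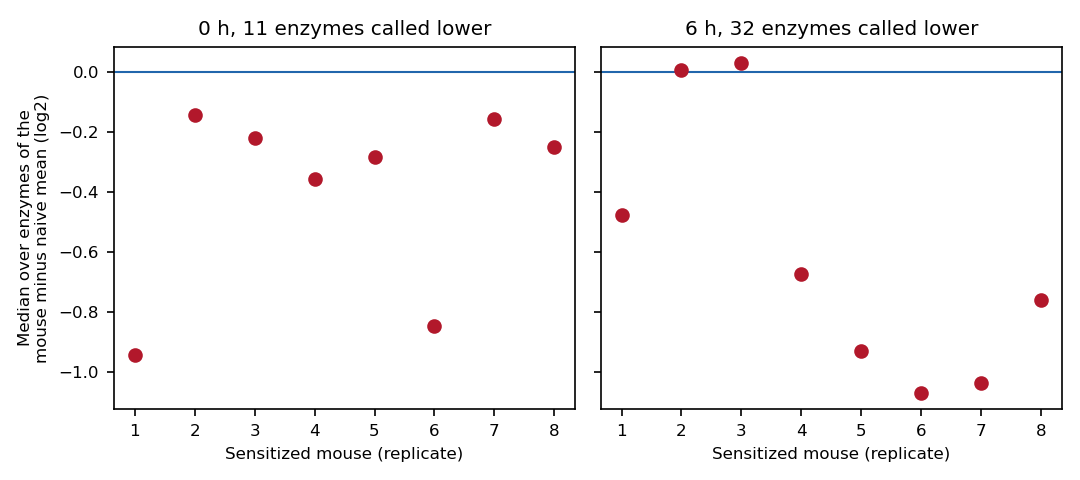
Median over the enzymes called lower of each sensitized mouse's signal minus the naive mean (log2), at 0 h (left, 11 enzymes) and 6 h (right, 32 enzymes); each point is 1 sensitized mouse and the line at 0 is the naive mean. Mice 1 and 6 are lowest at 0 h, and mice 2 and 3 lie at the naive mean at 6 h.

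Lists of genes that serve these enzymes or belong to the same pathways are given for 6 h, where 33.2% of all genes were lower and 24.6% higher. Of 7 measured genes for partners and cofactor supply, all 7 were lower at 6 h, among them the electron donor Cyb5a (-0.20), the haem synthesis gene Alas1 (-0.57) and the sulfate donor gene Papss2 (-0.35). At 96 h Alas1 was higher (0.42) and Papss2 lower (-0.56). Of 16 other oxidizing, reducing and hydrolysing enzymes, 14 were lower and 1 higher at 6 h. The lists share genes: Aldh1a1 and Cbr2 of this list also count in the club cell list, and Nqo1 among the Nrf2 targets. Adh1, an alcohol and retinol dehydrogenase, differed by -1.29, the carboxylesterase Ces1g by -1.19, the epoxide hydrolase Ephx2 by -0.90 and the monoamine oxidase Maob by -0.78, while the carbonyl reductase Cbr3 was higher by 0.54. Adh7, the dehydrogenase of squamous and airway epithelia, was lower at 6 h (-0.62, limma adjusted p = 0.0419) and higher by 1.12 at 96 h. At 6 h, naive mice 1 and 8 and sensitized mouse 7 were arrays with squamous epithelium transcripts. The naive mean of Adh7 was 9.21 at 6 h and 8.56 at 96 h. Its 6 h difference without those arrays was not computed. Of 7 other conjugating enzymes, 4 were lower and none higher at 6 h, with Gstz1 at -0.68 and the methyltransferase Inmt at -0.37.

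The share of the lists that was higher is read against the same 24.6% of all genes, and the share that was lower against 33.2%. Of 8 measured Nrf2 targets outside the glutathione transferases, 6 were higher and 1 lower at 6 h. Gclc, the catalytic subunit for glutathione synthesis, was higher by 1.02, the cystine importer Slc7a11 by 1.67 and the haem oxygenase Hmox1 by 0.65. The lower one was the quinone reductase Nqo1 (-0.46), which was lower at every time except 2 h. Of 8 sensors and regulators, 5 were lower and none higher at 6 h, with the fatty acid receptor Ppara at -0.74. Of 7 exporters, 2 were higher, a share near that of all genes, and 4 lower at 6 h. The related drug pumps Abcb1a and Abcb1b went apart, with differences of -0.73 and 0.82.

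Other marker lists at 6 h are given for reference, beside 24.6% higher and 33.2% lower of all genes. All 7 goblet cell genes were higher (median 2.15), 5 of 6 alveolar type II genes were lower (median -0.13), 2 of 8 club cell genes were higher, as in the background, and 4 lower, 1 of 8 ciliated cell genes was lower, and none of 7 cardiac muscle or 5 hepatocyte genes was called. Of 9 skeletal muscle genes 1 was lower, and of 9 squamous epithelium genes 1 was higher. The actin control probe sets at the 3′ and 5′ ends of the transcript differ more where RNA is shorter. Their log2 difference was 1.05 in sensitized mice and 1.23 in naive mice at 6 h (exact permutation test, two-sided, adjusted p = 0.0224 over the 8 times). It was 0.97 and 1.10 at 24 h (exact permutation, adjusted p = 0.0224), and 1.497 and 1.21 at 168 h (exact permutation, adjusted p = 0.0319). The part of these in the enzyme differences was not tested.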

How the data were processed

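Lungs of 123 BALB/c mice, 1 array each, were labelled with a 3′ in vitro transcription kit of Affymetrix, per the labels' protocols. The authors deposited log2 values per probe set, for which the submitters' processing notes name RMA. The version of RMA and the filter on probe sets were not given in the sources used here. RMA removes differences in overall brightness and compresses weak signals. Precision is limited by how many arrays there are. No further normalization was applied. The table holds 25697 probe sets, 22478 with 1 gene symbol, named through the platform annotation, and the probe set with the highest mean stood for a gene (13053 genes). No pair of arrays was identical. All 47 enzymes matched a RefSeq gene by Entrez ID.

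limma 3.58.1 (R 4.3.3) fitted 1 mean per group to all arrays (107 residual degrees of freedom, Benjamini-Hochberg over all genes within each contrast, threshold 0.05). Every adjusted p of a gene comes from it, and all groups share 1 spread per gene, so an SE can understate a more variable group. An array was set apart where its squamous epithelium or skeletal muscle score reached 8. No other score was used, so adipocyte or cardiac muscle transcripts could remain in the arrays kept. The fit was first tested on simulated data. Python 3.11.15 and matplotlib 3.10.9 were used.

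The members and lists were chosen with earlier results of these data known. Named genes are, at each time, the 3 highest and 5 lowest called enzymes, up to 3 per role group, and the 4 with the largest naive range or range of changes; other members stand beside their group.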

Additional observations from a re-analysis of the deposited data

Results flagged for a closer look

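In 122 groups of mice for the named enzymes, 5 had a lone mouse far from the others, and chance gives about 1 in 20. Cyp1b1 was 10.67 in naive mouse 8 at 24 h, with the next naive mouse at 9.82. Cyp3a13 was 8.38 in naive mouse 1 at 6 h, next 7.50. Both mice were among the arrays with transcripts of neighbouring tissue. Cyp4f18 was 9.75 in sensitized mouse 2 at 24 h, next 8.98. Gsto1 was 13.43 in sensitized mouse 2 at 72 h, next 13.11. Sult1c1 was 6.56 in naive mouse 7 at 96 h, next 5.12.

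The difference between the arms was itself different from that at 0 h in 7 enzymes at 2 h, 20 at 6 h, 3 at 24 h, 2 at 72 h, 1 at 96 h and 1 at 168 h, by limma contrasts. Among the enzymes with the widest range of changes, Cyp2e1 changed by 2.02 at 2 h. Cyp1b1 changed by 1.71 at 6 h and 0.93 at 24 h. Sult1a1 changed by 0.98 at 2 h and -0.56 at 6 h.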

How the results depend on the processing

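The counts of called enzymes at 6, 24, 48, 72 and 96 h stayed within 1.5 times under every alternative run. With 1 mouse left out at a time (92 fits, not at 2 and 168 h) they spanned 38 to 40 at 6 h, 26 to 29 at 24 h, 16 to 20 at 48 h, 22 to 28 at 72 h and 19 to 23 at 96 h. The count at 0 h, 15 with all mice, spanned 9 to 19, and both fits with 9 left out sensitized mouse 1 or 6. Array weights gave 23 calls at 0 h, 6 at 2 h and 5 at 168 h, and changes since 0 h in 14 enzymes at 2 h, 36 at 6 h, 23 at 24 h, 5 at 48 h, 13 at 72 h and 6 at 96 h, and 30 enzymes varying in naive mice. With the probe set of largest variance 1 enzyme was called at 2 h, and with only the 2 groups compared 1 at 168 h. With genes of mean 7 or more alone, changes were called for 1 enzyme at 72 h and 0 at 96 h. Sult1c2, the enzyme called at 96 h with all genes, had a mean of 6.40, so this filter itself removed it. Centring arrays on their median gave 3 changes at 168 h, and 7 higher and 17 lower at 96 h, where the deposited values gave 10 and 12. Without the arrays set apart, changes numbered 1 at 72 h and 4 at 168 h. After seeing the data, sensitized mice 2 and 3 at 6 h were left out, which gave 32 changes at 6 h, and sensitized mice 1 and 6 at 0 h, which gave 4 calls at 0 h and 2, 11, 4, 2 and 0 changes at 2, 24, 72, 96 and 168 h. Apart from the removal of Sult1c2 by the filter, the cause of these shifts was not tested.

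Of 61 differences of named enzymes, none changed sign. Under alternatives other than leaving out 1 mouse 493 of 505 values were called in the same direction and 12 were not called. With 1 mouse left out 862 of 875 were called and 13 were not, 7 of them Cyp1b1 at 72 h (0.39 to 0.42). No paired analysis was possible because each array is another animal and replicate numbers only follow deposition order.

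The signals of 6 enzymes averaged under 7, where RMA compresses differences, and close relatives share probe sequence. The tables used here hold no promoter for 7 enzymes and name no protein.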
